A study of Homo sapiens with 24 samples.

Results

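Immediate early genes are the genes whose transcripts appear within minutes of a stimulus, without new protein synthesis. The 10 such genes considered here were listed by name, FOS, JUN, JUNB, JUND, EGR1, IER2, IER3, ATF3, DUSP1 and KLF6, and their symbols were matched to the Ensembl identifiers of the expression table. Of the 10 listed genes 9 were found among the 12285 genes of the table, and FOS was not analysed here.

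The libraries came from K562, an established human chronic myelogenous leukaemia line with erythroid features that carries the BCR-ABL1 fusion and grows in suspension. A synchronous population was obtained by centrifugal elutriation, which sorts cells by size, and was then cultured in RPMI medium with bovine calf serum and antibiotics. Sampling at steps of 2 h, with 0 h as the first and 46 h as the last, gave 24 RNA-seq libraries, 1 per time point. All 24 libraries share the cell line, the medium and the elutriation, and no unelutriated culture was compared. The study was about irregular time points, where much of the transcriptome steps away from its neighbours, and it singled out 16 h and 18 h and, less strongly, 32 h, which was kept as an ordinary library here except in an alternative without it. Since each time point is 1 library, the p-values below rest on the spread between neighbouring time points and not on replicate cultures.

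In resting or growing cells, growth factors, cytokines and physical or chemical stress reach immediate early promoters through the RAS, RAF, MEK and ERK kinases and through the stress kinases JNK and p38. ERK phosphorylates the ternary complex factors, which sit with serum response factor (SRF) on CArG boxes, while CREB and ATF proteins bind the cyclic AMP response element TGACGTCA and AP-1 proteins bind related sites such as TGACATCA. The products are mostly transcription factors, and their transcripts are short-lived, in several cases through AU-rich elements of the 3′ untranslated region.

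The promoters of 4 of the genes that were highest at 0 h are shown, because they carry the binding sites by which the family is known. Each is the 250 bases before the annotated transcription start in RefSeq (GRCh38.p14), read 5′ to 3′ on the strand of the gene, with CArG boxes, TGACGTCA, TGACATCA and the shorter TGACGT in capitals where a search of both strands found them. EGR1 lies on the plus strand at chr5:138465229-138465478, JUN on the minus strand at chr1:58784048-58784297, DUSP1 on the minus strand at chr5:172771196-172771445 and the first of 2 annotated ATF3 starts on the plus strand at chr1:212565157-212565406. The windows were placed on the reference assembly and not on the GRCh37 build of the expression table.
EGR1: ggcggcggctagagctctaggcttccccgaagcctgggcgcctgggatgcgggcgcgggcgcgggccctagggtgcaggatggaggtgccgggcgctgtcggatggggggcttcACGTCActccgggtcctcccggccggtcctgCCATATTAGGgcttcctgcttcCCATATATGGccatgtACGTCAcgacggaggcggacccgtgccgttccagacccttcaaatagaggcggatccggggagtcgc
JUN: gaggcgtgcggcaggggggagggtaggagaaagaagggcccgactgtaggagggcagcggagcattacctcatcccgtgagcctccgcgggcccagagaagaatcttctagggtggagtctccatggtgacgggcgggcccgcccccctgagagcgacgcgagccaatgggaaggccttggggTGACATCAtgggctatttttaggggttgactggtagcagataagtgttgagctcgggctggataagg
DUSP1: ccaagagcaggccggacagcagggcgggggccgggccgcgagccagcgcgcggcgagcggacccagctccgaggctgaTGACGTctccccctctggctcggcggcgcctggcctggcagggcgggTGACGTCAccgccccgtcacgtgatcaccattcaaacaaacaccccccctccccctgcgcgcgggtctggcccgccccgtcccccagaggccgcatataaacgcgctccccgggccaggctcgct
ATF3: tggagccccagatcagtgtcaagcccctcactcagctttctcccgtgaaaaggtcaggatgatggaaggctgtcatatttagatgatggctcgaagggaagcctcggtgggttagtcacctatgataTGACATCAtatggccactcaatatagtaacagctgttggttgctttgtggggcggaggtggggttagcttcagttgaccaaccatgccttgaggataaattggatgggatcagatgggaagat

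EGR1 held 2 CArG boxes, from 105 to 96 and from 83 to 74 bases before the start, and TGACGT, read on the other strand, on either side of them. It was the only one of 8 matched members with a CArG box, which was found in 1.16% of 35116 human promoter windows of the same length and in 0.970% of the 12888 windows of genes in the table. JUN held TGACATCA from 67 to 60 bases before its start, as did ATF3 from 123 to 116 before the first of its 2 starts. KLF6 held the same letters, which made 3 of 8 members against 2.37% of all windows and 1.19% of those of genes in the table. The window of the second ATF3 start held none of the letters searched for. Members were counted once per gene, with a match at any start, whereas the shares are taken over windows. TGACGTCA was found in DUSP1, from 125 to 118 bases before the start, and in JUND, against 1.65% of all windows and 2.77% of those of genes in the table. TGACGT, which overlaps TGACGTCA, was found in EGR1, JUND and DUSP1, against 7.10% and 10.0%. JUNB and IER2 held none of these letters, and IER3 had no entry in the promoter table. These are matches of letters in a window and no binding was measured.

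In its summed FPKM and cell type markers the 0 h library lay within the range of the others. The summed FPKM, a fragment count scaled by transcript length and library size, per library ran from 456791 at 46 h to 591309 at 18 h, and read depth is unknown. All 15 erythroid markers looked for, among them the globins, GATA1 and KLF1, were in the table, while 1 of 8 fibroblast, 3 of 8 lymphoid and 2 of 8 monocyte markers were. The summed erythroid markers were 7699 FPKM at 0 h, within the range of 4426 to 9522 FPKM over the series. The summed lymphoid markers were 26.3 FPKM at 0 h against a median of 36.5 FPKM, and their highest value, 56.0 FPKM, fell at 46 h.

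Most of the immediate early transcripts stood at their highest level in the very first library and were lower at 2 h. In bulk RNA a higher value can be more RNA per cell or more cells that hold the transcript, which cannot be told apart here. The largest excess was that of EGR1, a zinc finger transcription factor induced through SRF, followed by JUN, the AP-1 subunit activated by JNK. Of the 9 measured members 8 had their highest value of all 24 libraries at 0 h, against 579 of 12285 genes, or 4.71%. The remaining member, JUND, which is known as the constitutively expressed JUN protein, was highest at 2 h.

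EGR1 (ENSG00000120738) was at 242 FPKM at 0 h, at 8.93 FPKM at 2 h and at 8.97 FPKM at 4 h. Over the 21 later libraries other than 16 h and 18 h it had a lowest value of 5.51, a median of 6.81 and a highest value of 14.3 FPKM. No later library came near the first, which was 17 times the highest of the 21. Of its excess at 0 h over the median of 6 h to 14 h, 0.900% was left at 2 h.

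JUN (ENSG00000177606) was at 63.0 FPKM at 0 h, 9.44 FPKM at 2 h, 7.34 FPKM at 4 h, 6.22 FPKM at 6 h and 5.46 FPKM at 8 h. Its later libraries had a lowest value of 3.05 FPKM at 22 h, a median of 4.50 and a highest value of 9.44 FPKM. Unlike EGR1, JUN kept falling from library to library to 3.96 FPKM at 14 h. With 16 h and 18 h left out it fell on to its lowest value at 22 h. At 2 h, 8.43% of its excess over the median of 6 h to 14 h was left.

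JUNB (ENSG00000171223), an AP-1 subunit that often counteracts JUN, was at 54.4 FPKM at 0 h and 18.4 FPKM at 2 h, with 12.4, 21.1 and 25.6 FPKM as the lowest, median and highest of the later libraries. JUND (ENSG00000130522) was at 96.3 FPKM at 0 h, 116 FPKM at 2 h and 50.5 FPKM at 4 h, with 28.0, 57.7 and 116 FPKM as its lowest, median and highest later values. JUNB was high in the first library alone, and JUND in the first and the second.

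ATF3 (ENSG00000162772), a bZIP repressor induced by many stresses, was at 37.2 FPKM at 0 h, 10.6 FPKM at 2 h and 6.66 FPKM at 4 h. Its later libraries had a lowest value of 5.52 and a median of 7.26 FPKM, but its highest, 36.8 FPKM, was at 46 h and lay close to the value at 0 h. KLF6 (ENSG00000067082), a Krüppel-like transcription factor, was at 12.9 FPKM at 0 h and 7.19 FPKM at 2 h, with 5.43, 6.84 and 9.57 FPKM as the lowest, median and highest later values. Its highest later value was also at 46 h.

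DUSP1 (ENSG00000120129), the nuclear phosphatase that inactivates p38, JNK and ERK, was at 33.3 FPKM at 0 h and 6.47 FPKM at 2 h. Its later libraries ran from 4.84 FPKM at 46 h through a median of 6.37 to 9.28 FPKM at 10 h, so the 0 h library was 3.59 times the highest later one. IER2 (ENSG00000160888), a nuclear protein induced by growth factors, was at 164 FPKM at 0 h and 33.4 FPKM at 2 h, with 31.5, 36.6 and 48.3 FPKM as the lowest, median and highest later values. IER3 (ENSG00000137331), a regulator of ERK signalling and cell survival, was at 14.0 FPKM at 0 h and 9.25 FPKM at 2 h, with 6.44, 8.25 and 10.1 FPKM in the later libraries. The 0 h value of IER3 stood apart from the later range by the smaller factor of 1.39.

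**Figure D1:**
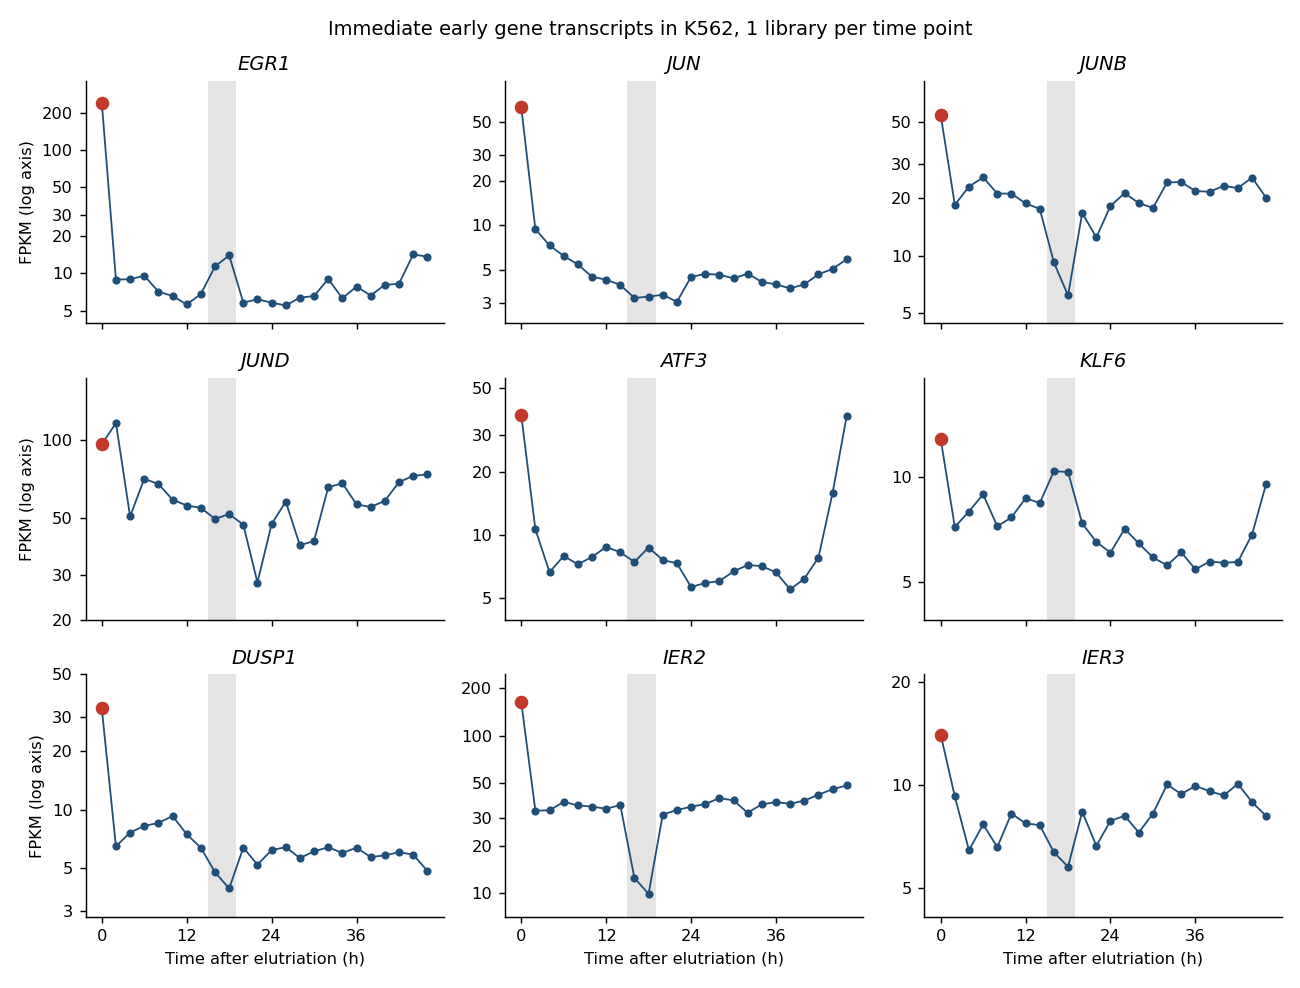
FPKM of the 9 measured members (log axis, a separate scale for each gene) against hours after elutriation, with 1 point per library, the 0 h library in red and 16 h and 18 h shaded. In 8 of the 9 panels the red point is the highest, from 242 FPKM for EGR1 to 12.9 FPKM for KLF6, and ATF3 climbs again to 36.8 FPKM at 46 h.

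Since FPKM is scaled by transcript length, the levels can be ordered between genes. Over the later libraries the medians ran from JUND (57.7 FPKM) through IER2 (36.6), JUNB (21.1), IER3 (8.25), ATF3 (7.26), KLF6 (6.84), EGR1 (6.81) and DUSP1 (6.37) to JUN (4.50 FPKM). The ranges of JUND and IER2 overlapped, the lowest IER2 value (31.5 FPKM) was above the highest JUNB value (25.6 FPKM), and the lowest JUNB value (12.4 FPKM) was above the highest IER3 value (10.1 FPKM). Among the 6 genes with a median below 10 FPKM the ranges overlapped between all neighbours. At 0 h the order was another one, with EGR1 first and IER2 second.

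The question whether the first library differed from the rest of the first 14 h was put to limma, on log2(FPKM + 1), with 0 h as a level of its own against the 5 libraries from 6 h to 14 h and the spread estimated from 22 libraries in 7 levels, 16 h and 18 h being left out. Of the 9 members 8 were higher at 0 h at a Benjamini-Hochberg adjusted p of 0.05 or below, and 0 were lower, against 5.92% higher, 4.63% lower and 10.5% in either direction of the 12253 genes whose mean reached 1 FPKM. EGR1 was higher by 4.92 ± 0.25 (SE) on the log2 scale (limma adjusted p = 2.28e-10) and JUN by 3.46 ± 0.18 (limma adjusted p = 2.28e-10), and these were the largest and the next largest differences of all genes tested. The rank of the rest ran from 11 for IER2 to 533 for KLF6.

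IER2 was higher at 0 h by 2.15 ± 0.10 on the log2 scale, and DUSP1 by 1.94 ± 0.14. ATF3 was higher by 2.08 with the wider error of 0.50. Its libraries from 40 h to 46 h, which enter the estimate of the spread, ran from 6.19 to 36.8 FPKM. JUNB was higher by 1.36 ± 0.18. The smaller differences were those of IER3, 0.81 ± 0.15, and KLF6, 0.60 ± 0.17. JUND differed by 0.65 ± 0.33, which did not pass (limma adjusted p = 0.218). The median difference of the 9 members was 1.94, beside -0.01 over all genes tested. The test takes the 0 h library to vary as the others do, and what belongs to 0 h cannot be told apart from what belongs to that library.

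With 2 h in place of 0 h, a comparison added after the values were seen, 2 of the 9 members were higher than at 6 h to 14 h and 0 were lower, against 5.57% of genes higher, 8.16% lower and 13.7% in either direction. JUND was higher by 0.92 ± 0.26 (limma adjusted p = 0.0291) and JUN by 0.84 ± 0.18 (limma adjusted p = 0.00475). EGR1 differed by 0.30 ± 0.27, IER2 by -0.10 ± 0.11 and DUSP1 by -0.26 ± 0.15, none of which passed (limma adjusted p of 0.507, 0.589 and 0.271).

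**Figure D2:**
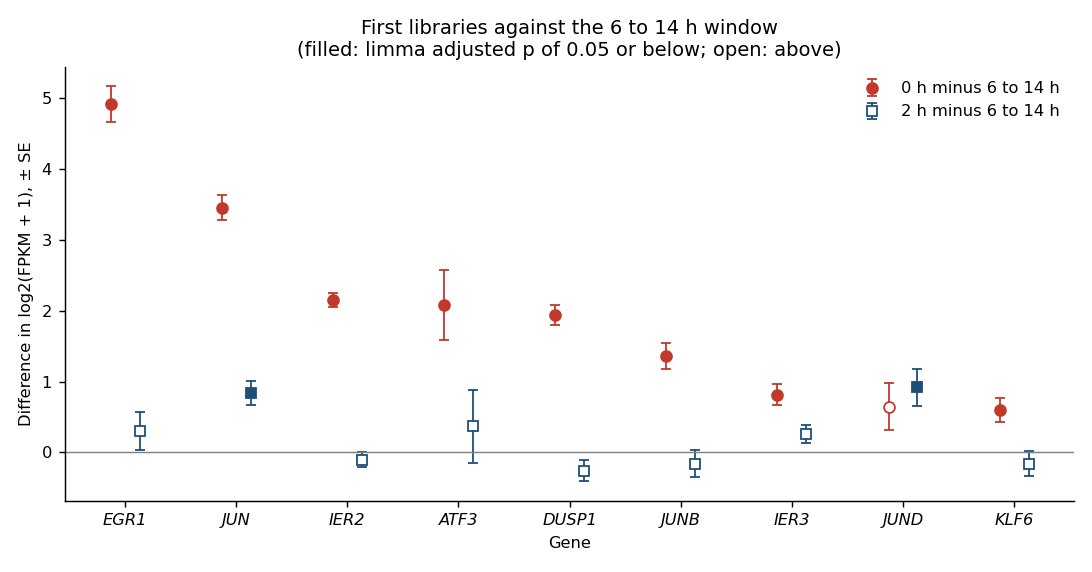
Difference in log2(FPKM + 1) of the 0 h library (circles) and the 2 h library (squares) from the 6 h to 14 h window for the 9 members, with SE bars from limma and filled symbols at an adjusted p of 0.05 or below. EGR1 is at 4.92 at 0 h and 0.30 at 2 h, and JUND is the member whose difference is larger at 2 h (0.92) than at 0 h (0.65).

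Over a window of 3 libraries fewer members passed. When 0 h, 2 h and 4 h were pooled against 6 h to 14 h, JUN was called (1.60 ± 0.39, limma adjusted p = 0.00961) and the other 8 members were not, against 6.41% of genes called higher, 8.55% lower and 15.0% in either direction. EGR1 had the larger difference, 1.84 ± 0.64, with an adjusted p of 0.0555 in the same limma fit. All 9 differences were positive, with a median of 0.55 beside -0.02 over all genes. Without the 0 h library JUN was still higher, by 0.68 ± 0.14 (limma adjusted p = 0.00339), while EGR1 was at 0.31 ± 0.19 and IER2 at -0.10 ± 0.08, which did not pass. Without 2 h 3 members were called, against 4.92% of genes in either direction, and without 4 h 5 were, against 19.5%.

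The same hours of the second day were compared to see whether the early excess recurs 1 assumed cycle of 24 h later. EGR1 was between 5.51 and 6.37 FPKM at 24 h, 26 h and 28 h, JUN between 4.50 and 4.71 FPKM, IER2 between 35.4 and 40.1 FPKM, and ATF3 between 5.66 and 6.04 FPKM. No library of the second day repeated the 0 h levels of EGR1, JUN, IER2 or DUSP1. For 0 h to 4 h against 24 h to 28 h, JUN was higher by 1.66 ± 0.43 (limma adjusted p = 0.0268) and was the 1 member called, against 1.60% of genes called higher, 4.75% lower and 6.35% in either direction. Without 2 h 3 members were called, against 2.23% of genes in either direction, and without 4 h 6 were, against 7.80%. With 0 h alone against 24 h to 28 h, added after the values were seen, 8 of 9 members were higher, against 340 genes called, or 2.775% of all, of which 50.3% were higher. Among the members EGR1 was higher by 5.14 ± 0.26 on the log2 scale and KLF6 by 0.88 ± 0.18. The contrast was chosen after the members were seen to be high at 0 h, which is 1 library. Its counts therefore restate that observation and are no test of recurrence.

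The difference between the days was also tested directly. For the change from 0 h to 4 h into 6 h to 14 h, set against the same change 24 h later, limma called 0 of 9 members, against 0.620% of genes higher, 0.547% lower and 1.17% in either direction, and 4 members were below an unadjusted p of 0.05. In that limma fit they were JUN (1.49 ± 0.55, adjusted p = 0.186), IER3 (0.55 ± 0.20, adjusted p = 0.189), EGR1 (2.10 ± 0.90, adjusted p = 0.251) and JUND (0.67 ± 0.31, adjusted p = 0.282). Without the 4 h library 3 members were called, against 7.02% of genes. With 0 h and 24 h as single levels the excess of EGR1 was larger at 0 h by 5.19 on the log2 scale and that of JUN by 3.38. This contrast was chosen after the members were seen to be high at 0 h and has 1 library in each of these levels, so it describes the 0 h library and does not test a difference between the days.

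Other genes of the same response were read from lists drawn up by function. Of 45 further immediate early genes 30 were in the table, and at 0 h against 6 h to 14 h 13 of them were higher, 1 was lower and 16 did not pass limma's adjusted p of 0.05, with a median of 0.55. For this list and the others compared with 6 h to 14 h, the shares over all genes are the 5.92% higher and 4.63% lower given above. The largest excesses at 0 h were those of CCN1, a secreted matrix protein and SRF target (2.22 ± 0.17), and MAFF, a small MAF protein (1.49 ± 0.18). ID3, an inhibitor of bHLH factors (1.31 ± 0.29), and ZFP36 (1.23 ± 0.20) came next. ZFP36 binds AU-rich elements and promotes decay of the transcripts that hold them. SOCS3, a feedback inhibitor of cytokine signalling, was the gene that was lower at 0 h, by 1.19 on the log2 scale. CCN1 was at 11.3 FPKM at 0 h and 1.41 FPKM at 2 h, much as EGR1 was, with 2.36 FPKM as its highest later value.

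Of 8 feedback inhibitors of the kinases that were measured, 2 were higher at 0 h, SPRY2 by 0.59 ± 0.11 and DUSP10 by 0.49 ± 0.15, and the median of the 8 was 0.24. Among upstream kinases and transcription factors MAP2K1, which encodes MEK1, was higher at 0 h (0.40 ± 0.11), and HRAS (-0.62 ± 0.14) and ELK1 (-0.31 ± 0.09), a ternary complex factor, were lower. SRF, named for its role and not by its difference, whose protein binds the CArG boxes of EGR1, was at 20.5 FPKM at 0 h against 16.2 to 22.9 FPKM at 6 h to 14 h and did not pass (limma adjusted p = 0.412).

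None of 12 other AP-1 family genes, 8 genes of AU-rich element decay, 13 heat shock genes or 11 integrated stress response genes passed at 0 h in limma, in either direction, and 1, 0, 1 and 1 of them were below an unadjusted p of 0.05. Their medians were -0.10, -0.08, -0.07 and 0.25 on the log2 scale, beside -0.01 over all genes. The nearest to the threshold was DDIT3, which encodes CHOP, at 49.1 FPKM at 0 h against 15.1 to 24.0 FPKM at 6 h to 14 h (1.20 ± 0.39, limma adjusted p = 0.0523). Among the cell-cycle lists the median difference of 0 h from 6 h to 14 h was 0.74 over 11 G2/M genes and 0.18 over 12 S-phase genes. The difference was positive in 8 of the 11 and in 10 of the 12, so most G2/M genes shared the direction of the members. CDC20 was at 111 FPKM at 0 h against 33.2 to 54.9 FPKM at 6 h to 14 h, while AURKB was at 30.9 against 33.9 to 44.6 FPKM. Measured from the median of the 22 libraries other than 16 h and 18 h, the G2/M median at 0 h was 0.15. By that measure 8 of 11 G2/M genes were above at 0 h, 0 of them by 2-fold or more. Of 15 erythroid markers 1 was higher and 3 were lower, and none of the 5 fibroblast, lymphoid and monocyte markers tested passed or was below an unadjusted p of 0.05 in limma. The part of these groups in the 0 h values of the members was not tested.

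Other genes were also high in the first library. On the log2 difference from the median of the 22 libraries other than 16 h and 18 h, 6 of the 9 members were 2-fold or more above at 0 h, EGR1, JUN, DUSP1, ATF3, IER2 and JUNB, against 0.637% of genes, or 78 genes. None of the 9 was 2-fold or more below, against 0.277% of genes, and at 2 h 0 of 9 were past 2-fold in either direction, against 0.416% above and 0.645% below. EGR1 (4.93) and JUN (3.52) led this list of genes, and MIR210HG, the host of a hypoxia-induced microRNA, came next (2.38), followed by CD69, an early activation antigen of lymphocytes (2.27). Small nucleolar RNAs such as SNORD38A (2.26) and SNORA52 (2.10) were also among the 30 highest. So were histone genes such as H2BC7 (1.73) and H2BC21 (1.69), and the enzyme genes P4HA1 (1.49) and PFKFB4 (1.45). MIR210HG was at 11.1 FPKM at 0 h and 2.83 FPKM at 2 h. These genes were picked out after their values were seen, and their part in the result for the members was not tested.

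**Figure D3:**
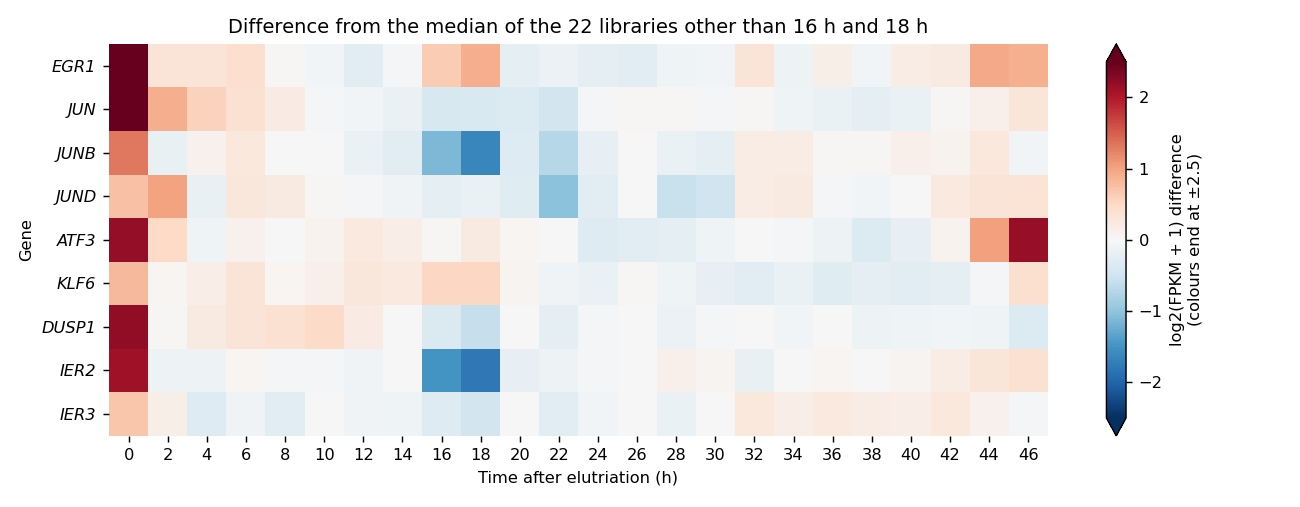
Difference of each member in each library from its median over the 22 libraries other than 16 h and 18 h, in log2(FPKM + 1), for 9 genes and 24 time points (colours end at 2.5 in either direction). The 0 h column is positive for all 9 members, JUNB and IER2 are negative at 16 h and 18 h, and ATF3 is positive at 44 h and 46 h.

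The profiles of the members were compared in pairs with and without the 0 h library. Over 36 pairs of members the Pearson correlation of log2(FPKM + 1) over 22 libraries had a median of 0.663 (0.0912 to 0.963), and without the 0 h library a median of 0.292 (-0.554 to 0.743). With 0 h, 29 pairs were above 0.5, and without it 8 pairs were. The libraries are shared by all pairs and follow each other in time, so these values describe the profiles only. EGR1 was most like IER2 with 0 h (r = 0.963) and most like ATF3 without it (r = 0.743), while DUSP1 went from JUN (r = 0.897) to KLF6 (r = 0.333).

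The 10 genes outside the list whose profile was most like the mean Z-score profile of the members over 22 libraries were MIR210HG (r = 0.910), CCNL1 (0.907), CCN1 (0.872), an unnamed gene with the identifier ENSG00000274267 (0.868), PDK1 (0.867), MCL1 (0.866), NR4A2 (0.852), ANKRD37 (0.851), H2BC20P (0.850) and CPOX (0.846). Without 0 h the same genes had r from 0.0444 for CCN1 to 0.785 for NR4A2. NR4A2, an orphan nuclear receptor and itself an immediate early gene, thus kept most of its likeness, while that of CCN1 rested on the first library.

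ATF3 stood apart from the other members at the end of the series. It was at 7.81 FPKM at 42 h, 15.8 FPKM at 44 h and 36.8 FPKM at 46 h, which gave it rank 4 of all genes at 46 h on the log2 difference from the median (2.19). At 46 h it was the 1 member of 9 at 2-fold or more above the median, against 0.808% of genes, and at 44 h again the 1 member, against 0.196% of genes. None was 2-fold or more below at 46 h or 44 h, against 0.457% and 0.277% of genes. EGR1 was at 14.3 FPKM at 44 h and 13.7 FPKM at 46 h, which is below 2-fold over the median on the log2(FPKM + 1) scale (0.94 and 0.88) but above all its other values after 0 h outside 16 h and 18 h. IER2 was at 45.7 FPKM at 44 h and 48.3 FPKM at 46 h, its highest values after 0 h. KLF6 was at 9.57 FPKM at 46 h, its highest value after 0 h outside 16 h and 18 h. JUND was at 72.6 and 73.6 FPKM at 44 h and 46 h, below its values at 0 h and 2 h. JUN, JUNB and IER3 were at 5.92, 20.0 and 8.11 FPKM at 46 h, within the range of their earlier values. DUSP1 was at 4.84 FPKM at 46 h, its lowest value outside 16 h and 18 h.

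Genes of the integrated stress response, in which ATF4 activates ATF3, CHOP and amino acid genes, were also high at 46 h. Of 11 that were measured, 2 were 2-fold or more above the median at 44 h and 6 at 46 h, and the median of the 11 was 0.43 and 1.15. The examples named here were chosen after their values were seen. CHAC1, a glutathione-degrading enzyme, was at 20.98 FPKM at 44 h and 65.2 FPKM at 46 h beside a median of 5.42 FPKM, and DDIT4, an inhibitor of mTORC1, at 437 and 787 FPKM beside 95.5 FPKM. SESN2 was at 57.4 FPKM at 46 h beside a median of 14.5 FPKM. At 0 h, where ATF3 was as high as at 46 h, CHAC1 was at 6.91 FPKM, SESN2 at 22.0 FPKM and DDIT4 at 185 FPKM. All 11 genes were above their median at 0 h, with a median difference of 0.24, and 1 of them, DDIT3, by 2-fold or more. ATF4 was at 147 FPKM at 0 h and 145 FPKM at 46 h beside a median of 96.8 FPKM. Other groups moved at 46 h too. None of 13 heat shock genes was above its median (median difference -0.49), the summed monocyte markers were 48.2 FPKM against a median of 30.8 FPKM, with CD68 at 20.7 against 7.63 FPKM, and the summed lymphoid markers were at the 56.0 FPKM given above. Their part in the ATF3 value was not tested. With 1 library at each time the difference between 0 h and 46 h in the genes that were high with ATF3 was not tested.

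**Figure D4:**
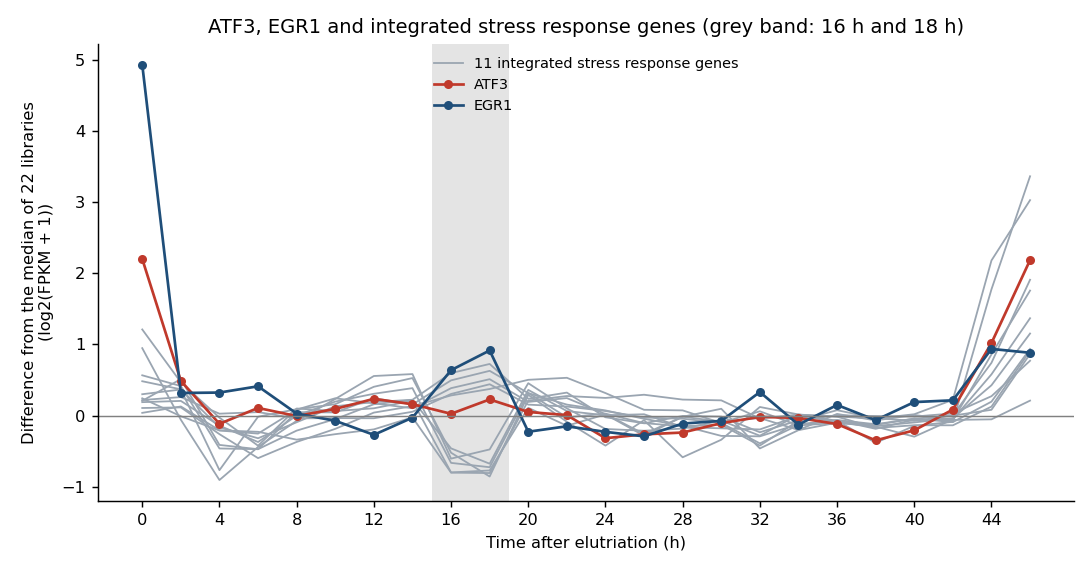
Difference from the median of 22 libraries in log2(FPKM + 1) against hours after elutriation for ATF3 (red), EGR1 (blue) and 11 integrated stress response genes (grey). ATF3 is at 2.20 at 0 h and 2.19 at 46 h, EGR1 is at 4.93 at 0 h and 0.88 at 46 h, and the grey lines reach 3.37 (CHAC1) at 46 h but at most 1.21 (DDIT3) at 0 h.

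At 16 h and 18 h, which the study named as irregular, the members split. IER2 was at 36.2 FPKM at 14 h, 12.4 FPKM at 16 h, 9.88 FPKM at 18 h and 31.5 FPKM at 20 h. JUNB was at 17.6, 9.22, 6.19 and 16.7 FPKM in the same libraries. EGR1 went the other way, with 6.81, 11.4, 14.0 and 5.81 FPKM, and so did KLF6, with 8.42, 10.4, 10.3 and 7.36 FPKM. IER2 and JUNB were 2-fold or more below the median of 22 libraries at both times, against 6.22% of genes at 16 h and 8.68% at 18 h, and 0 of 9 members were above by as much, against 6.77% and 10.2%.

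As the mean deviation on the log2 scale from a line drawn through the flanking 14 h and 20 h libraries, IER2 was at -1.53, JUNB at -1.08, DUSP1 at -0.47, IER3 at -0.35, JUN at -0.13, JUND at -0.0035, ATF3 at 0.02, KLF6 at 0.36 and EGR1 at 0.91. Of the 9 members 4 lay outside the range of the same measure at 16 other pairs of time points (IER2, JUNB, EGR1 and KLF6), against 71.6% of all genes. One of these pairs is flanked by 0 h and sets the lower end of the range for 8 of the 9 members, JUND being the other. Without it, in a setting chosen after the values were seen, 7 of 9 members were outside, against 73.4% of genes. Both counts are close to or below the share of all genes. IER2 and JUNB deviated by 2-fold or more downwards, against 7.11% of genes, and 0 of 9 members upwards, against 8.95%.

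**Figure D5:**
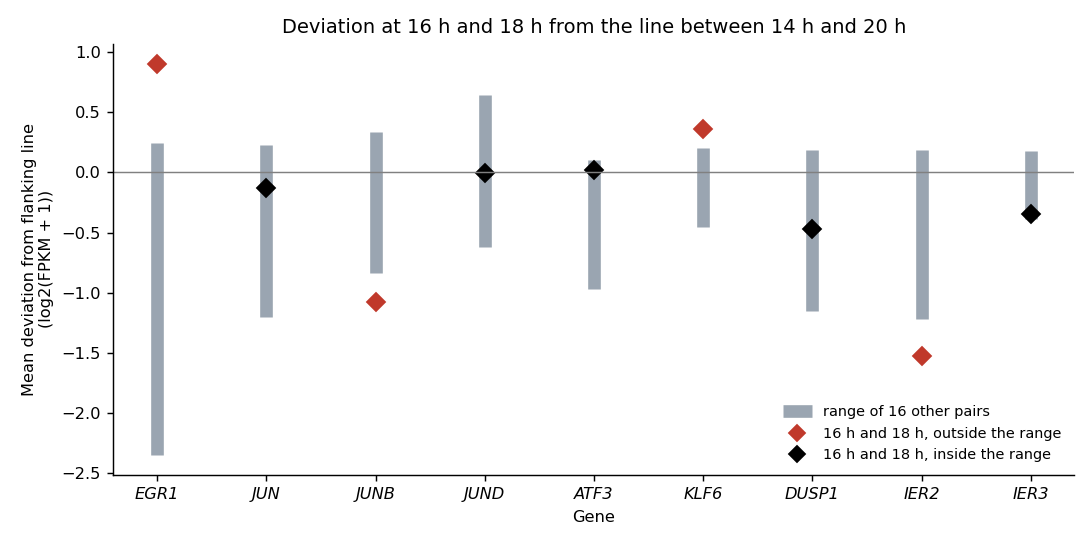
Mean deviation of 16 h and 18 h from the line between 14 h and 20 h in log2(FPKM + 1) for the 9 members (diamonds), with the range of the same measure at 16 other pairs of time points (bars). IER2 (-1.53) and JUNB (-1.08) lie below their bars, EGR1 (0.91) and KLF6 (0.36) above, and the lower ends of all bars but that of JUND come from the pair next to 0 h.

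Matched hours of the 2 days were compared over 10 pairs of libraries 24 h apart, with the hour as a block. Limma called 0 of 9 members, against 12.6% of genes higher, 7.04% lower and 19.6% in either direction, and 2 members, DUSP1 and KLF6, were below an unadjusted p of 0.05. DUSP1 was lower on the second day in 10 of 10 pairs, by -0.45 ± 0.18 on the log2 scale (limma adjusted p = 0.0921), and KLF6 in 9 of 10 pairs, by -0.31 ± 0.11 (limma adjusted p = 0.0659). Without the pair of 0 h and 24 h, DUSP1 was lower by -0.25 and was called (limma adjusted p = 0.0177). KLF6 was called under median centring (limma adjusted p = 0.0397), under quantile normalization (limma adjusted p = 0.0349) and without the pair of 22 h and 46 h (limma adjusted p = 0.0104). IER2 and IER3 leaned the other way, each higher on the second day in 8 of 10 pairs, with median differences of 0.09 and 0.16.

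An order in time with a 24 h period was looked for with the JTK statistic, the largest Kendall score over 12 phases of a cosine, with a permutation p from 100000 orderings adjusted over all genes. JUN was the 1 member of 9 that passed, against 11.9% of genes (permutation p = 0.00304, adjusted p = 0.0334, phase at 2 h), and DUSP1 came next (permutation p = 0.0336, adjusted p = 0.132). Without 16 h and 18 h JUN was still called (adjusted permutation p = 0.0403, phase at 2 h). JUN was not called in the corrected scores that the study also deposited (adjusted permutation p = 0.857).

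The members also shared features of gene structure that the list did not use. In GENCODE 29 the gene span had a median of 3540 bases for the 9 members. It was 31010 bases for the 10348 genes of the table with a coding transcript and a mean of at least 1 FPKM. An annotated 3′ untranslated region was not required of them. Of the 9 members 8 spanned under 10000 bases, against 19.3% of those genes. ATF3, at 55444 bases, was the exception. The longest coding transcript had from 1 to 4 exons in the members, against a median of 9. GC content was above the median of 48.4% in 8 of 9 members, from 50.8% in ATF3 to 69.7% in JUND, with KLF6 below it at 45.9%. At 16 h and 18 h the deviation of all 10348 genes went down with GC content (Pearson r = -0.589, taken over genes, which are no replicates). The median deviation was -0.50 in the 2587 genes with a GC content from 56.9% upwards, which hold IER2 (61.7%), JUNB (64.9%), JUND (69.7%) and IER3 (58.5%). Of these IER2 and JUNB deviated by -1.53 and -1.08, and JUND by -0.0035. The part of GC content in the deviations of the members was not tested.

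An AU-rich nonamer core, TATTTAT, was present in the 3′ untranslated region of 6 of 9 members, against 33.8% of the 10348 genes, and ATTTA was found 3 times or more in 5 of 9 members, against 45.0%. The first match of 3 genes is shown in 25 bases of the GENCODE 29 transcript, with the 7 letters in capitals. DUSP1 and IER3 were chosen because they held several, and JUN because it fell stepwise from 0 h to 14 h and beyond.
JUN: gcttatgaaTATTTATaacagcatt
DUSP1: gctggtcctTATTTATttaacttca
IER3: cctaattaaTATTTATatgtattta

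JUN held 1 match, DUSP1 3 and IER3 4, and JUND, ATF3 and KLF6 1 each. EGR1, JUNB and IER2 held none, and IER2 had no ATTTA either. The excess at 2 h over the median of 6 h to 14 h is given in percent of that at 0 h. Without a match it was 0.900% in EGR1, -2.03% in IER2 and -7.96% in JUNB. With a match it was -7.10% in DUSP1, -27.7% in KLF6, 8.43% in JUN, 9.22% in ATF3, 24.95% in IER3 and 154% in JUND. A relation between the matches and the loss at 2 h was not tested. Decay of the transcripts was not measured.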

How the data were processed

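RNA from K562 cells was sequenced at 24 time points after elutriation, 1 library each. The authors aligned reads with STAR and quantified genes with Cufflinks and Cuffnorm on GRCh37 (per the labels and the methods, versions not given in the sources used here), and deposited FPKM values, in which every gene listed reaches 1 FPKM in at least 12 time points. The authors also deposited a cleaned table of scores, which are Z-scores per gene. These Z-scores share 1 distribution between time points, so the correction was not confined to the irregular ones. These scores served for 1 alternative of the test for 24 h order. Neither table holds counts, so depth is unknown, no count test was run and no counting interval is given.

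From the 12285 genes, 12123 identifiers were matched to a symbol. Tests used log2(FPKM + 1), so that changes of low genes are understated, and genes whose mean reached 1 FPKM. Time points were grouped into 6 windows of neighbouring libraries, without 16 h and 18 h, and compared with limma 3.58.1 (R 4.3.3, trended prior) with Benjamini-Hochberg adjustment. The order in time was scored with a JTK statistic over 12 phases and 100000 permutations (Python 3.11.15, numpy 2.4.6, pandas 2.3.3, scipy 1.17.1, with figures from matplotlib 3.10.9). The limma script was tested on simulated data with 200 changed genes. Promoters came from RefSeq (GRCh38.p14) and transcripts from GENCODE 29, joined by gene and not by coordinate.

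The members, the gene lists and the tests were chosen with earlier results of these data known. Named genes were the members, those with the largest first-hours difference in each list (2 to 4 per list), the 10 genes most like the members, and for each member the one most like it. A few further genes were named for their role or after their values were seen. Alternatives were the pseudocount, the filter on low values, the scaling, the libraries kept and the score table. The count over the list of upstream genes is not reported here.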

Additional observations from a re-analysis of the deposited data

Results flagged for a closer look

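For 6 members the values at 0 h and 24 h stood far apart, by the measure that follows. With 0 h and 24 h as single levels of a limma interaction, the difference of 0 h from 6 h to 14 h exceeded that of 24 h from 30 h to 38 h by 5.19 on the log2 scale for EGR1, 3.38 for JUN, 2.20 for IER2, 1.93 for DUSP1, 1.60 for JUNB and 1.05 for IER3. This contrast was chosen after the members were seen to be high at 0 h, and each of 0 h and 24 h is 1 library, so its p-values restate that observation and are not given. ATF3 (2.28), JUND (0.89) and KLF6 (0.53) had values of the same sign. With 3 libraries on each side, as planned, limma called 0 of 9 members, with 4 below an unadjusted p of 0.05 and 0.186 as the smallest adjusted p. A difference between the days in the change of the first hours was therefore not shown.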

How the results depend on the processing

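The difference at 0 h against 6 h to 14 h kept 8 of 9 members under the alternatives run, except with a mean of 10 FPKM as the filter, which left 5 members, 4 of them called, and 793 genes called in place of 1292. With the windows of 3 libraries the counts moved with the libraries kept. For 0 h to 4 h against 6 h to 14 h, 2 members were called in place of 1 with 16 h and 18 h included, and leaving out 1 library of the first window gave 1 to 5 members and 603 to 2390 genes in place of 1834. In that range JUNB ran from -0.0057 to 0.75, IER2 from -0.10 to 1.03, DUSP1 from -0.15 to 0.95 and KLF6 from -0.10 to 0.28, the negative values being those without 0 h. For 0 h to 4 h against 24 h to 28 h, 2 members were called in place of 1 under median centring, under quantile normalization, without 6 h and 32 h, and with 16 h and 18 h included. Without 6 h and 32 h 1311 genes were called in place of 778, leaving out 1 library gave 1 to 6 members and 273 to 1444 genes, and 0 h alone, chosen after seeing the data, gave 8 members and 340 genes. Without 0 h IER2 was at -0.15 and IER3 at -0.00055, and their highest values were 0.97 and 0.51.

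For the first hours of day 1 against day 2, 396 genes were called in place of 143 without 6 h and 32 h, leaving out 1 library gave 0 to 3 members and 9 to 860 genes, and 0 h and 24 h alone, chosen after seeing the data, gave 6 members and 317 genes. KLF6 changed sign, with 0.011 without 6 h and 32 h, 0.53 with 0 h and 24 h alone and -0.26 to 0.12 on leaving out 1 library (0.058 without 4 h), and without 0 h IER2 was at -0.14 and DUSP1 at -0.15 (highest 0.99 and 0.95). For the second day against the first, a mean of 10 FPKM gave 1331 genes in place of 2401, and 1 member was called in place of 0 under median centring, quantile normalization and without 22 h and 46 h (KLF6), and without 0 h and 24 h (DUSP1), the settings that leave out pairs chosen after seeing the data. JUNB changed sign, with 0.00084 at a pseudocount of 0.1, 0.037 without 6 h and 32 h and 0.17 without 0 h and 24 h, and in that last setting JUND was at 0.0025, EGR1 at 0.14, IER2 at 0.17 and ATF3 at 0.12. In the cleaned scores 0 members were called for 24 h order. The cause was not tested for any of these changes. No paired analysis was possible because each time point is 1 library and its replicate number only names it, so pairing by that number has no meaning; the comparison of the days has the hour as its block by design. A library left alone in its level is assumed to vary like the others, and with 1 library per time point a feature of the library cannot be told apart from one of the time.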
